A study of Mus musculus with 9 samples.

Results

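Cdkn1a, the gene of the cyclin-dependent kinase inhibitor p21, and 9 genes of the p53 pathway (Fas, Mdm2, Ccng1, Gadd45a, Plk2, Bax, Trp53, Phlda3 and Sesn1) were followed through 9 RNA-seq libraries of mouse spinal motoneurons. The genes were found by symbol, which gave 1 row each, 10 of the 55401 genes measured, and all 10 were among the 15893 genes with enough counts to be tested. The set was chosen by the level of Cdkn1a, which was high after electrical stimulation, to ask whether other p53 target genes were high with it. The comparisons of stimulated libraries with the others therefore entered the choice, and the values of the 10 genes in them are given as a description with no test. The comparison of untrained with sham libraries did not enter the choice and was tested.

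The SBES group held 3 libraries from wild-type mice with a spinal cord injury and synergistic bidirectional electrical stimulation, at 10 Hz in SBES 1, 15 Hz in SBES 2 and 20 Hz in SBES 3. The untrained group held 3 libraries from wild-type mice with the injury and no stimulation, and the sham group 3 libraries from wild-type mice whose treatment is labelled as none. Neurons marked with a fluorescent label called TRDA were drawn out of fresh spinal cord slices with glass electrodes 4 weeks after injury and profiled by Smart-seq2, which makes cDNA of whole transcripts from very little RNA. Each frequency had 1 library, so a frequency and its library cannot be told apart. Each group came from 3 mice, but the labels do not say which mouse gave which library. The sample titles carry the term scRNAseq, for single-cell RNA-seq, but how many neurons entered a library is not stated. The p-values therefore reflect how these libraries scatter, and some of that scatter may be technical. The table columns of SBES 1 and of the 3 untrained libraries were matched to their samples by elimination, and every value of these 4 libraries rests on that match.

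The transcription factor p53, made from Trp53, is held at a low level by the ubiquitin ligase Mdm2 and accumulates after DNA damage and other stress. It then activates genes that halt the cell cycle, among them Cdkn1a, repair DNA, start cell death or restrain p53 itself, and Mdm2 is one of these feedback targets. p21 binds and blocks complexes of cyclins with cyclin-dependent kinases. Adult motoneurons no longer divide, and Cdkn1a is also a target of factors other than p53, among them the glucocorticoid receptor and FoxO factors.

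Promoter sequences are shown first because p53 acts on its target genes through response elements in DNA, which can also lie outside promoters. In RefSeq sequence of GRCm38.p6, the 10 genes had 12 promoter windows, each from 250 bases before to 50 bases after an annotated start. Every window was searched on both strands for the p53 response element, a pair of 10-base half-sites with a spacer of 0 to 13 bases. The best match in each window was ranked by its number of mismatches. The upstream Cdkn1a start (chr17:29090729-29091028, plus strand) had a match with 0 mismatches and a spacer of 12 bases, beginning at position -73 from the start. Only 24 of 32851 promoters, 0.0731%, held such a match. The second of its half-sites was also part of a joined pair, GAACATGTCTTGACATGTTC, with 1 mismatch. The other Cdkn1a start lies 2790 bases downstream, and the best match in its window had 5 mismatches. Ccng1 (chr11:40755237-40755536, minus strand) had 1 mismatch with a spacer of 0 bases, and Bax (chr7:45466849-45467148, minus strand) 1 mismatch with a spacer of 1 base. A match with at most 1 mismatch was in 1.09% of promoters. The second Sesn1 window (chr10:41887189-41887488, plus strand) had 2 mismatches with a spacer of 3 bases, and at most 2 mismatches were found in 10.1% of promoters. Capitals mark the half-sites of the best match, and each sequence runs 5′ to 3′ on the gene's strand.
Cdkn1a: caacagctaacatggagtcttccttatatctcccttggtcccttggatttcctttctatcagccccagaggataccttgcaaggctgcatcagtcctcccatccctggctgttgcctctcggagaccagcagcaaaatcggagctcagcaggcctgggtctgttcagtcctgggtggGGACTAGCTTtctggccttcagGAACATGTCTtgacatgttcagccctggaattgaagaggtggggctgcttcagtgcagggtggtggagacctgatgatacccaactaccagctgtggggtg
Ccng1: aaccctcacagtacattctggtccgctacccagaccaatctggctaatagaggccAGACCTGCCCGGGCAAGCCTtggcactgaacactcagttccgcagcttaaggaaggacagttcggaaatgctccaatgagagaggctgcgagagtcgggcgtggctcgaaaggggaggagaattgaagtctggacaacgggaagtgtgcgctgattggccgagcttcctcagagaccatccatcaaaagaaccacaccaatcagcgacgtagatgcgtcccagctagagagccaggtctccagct
Bax: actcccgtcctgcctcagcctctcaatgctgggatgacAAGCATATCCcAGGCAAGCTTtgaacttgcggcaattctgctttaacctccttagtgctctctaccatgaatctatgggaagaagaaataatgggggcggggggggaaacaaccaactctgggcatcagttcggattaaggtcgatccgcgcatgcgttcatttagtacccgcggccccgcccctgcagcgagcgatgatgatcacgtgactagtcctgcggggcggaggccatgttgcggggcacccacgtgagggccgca
Sesn1: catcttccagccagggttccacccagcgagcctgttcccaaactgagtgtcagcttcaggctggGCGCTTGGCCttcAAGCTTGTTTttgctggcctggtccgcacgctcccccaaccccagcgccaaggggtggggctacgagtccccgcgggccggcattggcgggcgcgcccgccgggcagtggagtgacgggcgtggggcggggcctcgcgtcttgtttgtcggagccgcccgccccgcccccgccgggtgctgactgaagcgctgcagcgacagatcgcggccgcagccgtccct

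Of the 10 genes, 5 had a promoter match with at most 2 mismatches, the other being Gadd45a, and 7 had at most 3, to which Fas and Trp53 were added. At 3 mismatches 45.1% of all promoters matched, so the count at that level describes little. These counts took the best window of each gene, and Cdkn1a and Sesn1 had 2 windows each, while the shares are of single windows. The first Sesn1 window had 5 mismatches. A match of letters is not a binding site, and p53 sites outside these windows were not searched. The glucocorticoid response element, AGAACA and TGTTCT with 3 bases between them, was searched on both strands with at most 3 mismatches. It was in neither Cdkn1a window and in 14.5% of all promoters, and among the 10 genes only Ccng1 held it. The FoxO motif GTAAACA, searched on both strands without mismatches, was in 1 window each of Mdm2 and Sesn1 and in 3.65% of all promoters.

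Total counts ran from 11821145 in SBES 1 to 17675948 in sham 3. The libraries numbered 1 stood apart, with 4774 (SBES 1), 16069 (untrained 1) and 15128 (sham 1) CPM (counts scaled to a common library total) of the nuclear RNA Malat1, against 514 to 1617 CPM in the other 6. The share of counts from mitochondrially encoded genes was 18.6% in SBES 1 and 2.47% to 7.36% elsewhere. Every library held motor neuron transcripts beside those of glia and vessels. In CPM scaled by TMM, which is the scale used from here on, 8 motor neuron markers, among them Chat and Slc18a3, summed to 830 to 2106 in SBES, 649 to 1041 in untrained and 1288 to 1578 in sham libraries. The 8 markers of all neurons, among them Rbfox3 and Snap25, summed to 6088 to 11948 CPM in SBES, 6517 to 6906 in untrained and 8565 to 12560.5 in sham libraries.

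Cdkn1a (chr17:29090976-29100727, mm10, plus strand) was the gene of the set with the highest values after stimulation. It had 436, 377 and 1517 CPM in SBES libraries 1, 2 and 3, against 82.2, 60.4 and 226 CPM in untrained and 55.7, 65.6 and 80.0 CPM in sham libraries. Each SBES library lay above each untrained and each sham library, and SBES 3, at 20 Hz, had 3.73 times the mean of SBES 1 and 2. The group means were 776 ± 642 CPM in SBES, 123 ± 89.9 CPM in untrained and 67.1 ± 12.2 CPM in sham libraries (SD, n = 3 each). The log2 fold change was 2.66 (SE 0.58) for SBES against untrained, higher than in 99.94% of genes tested, and 3.53 (SE 0.61) for SBES against sham. Without SBES 3 these were 1.72 and 2.60. For untrained against sham it was 0.87 (SE 0.55), the groups overlapped, and edgeR's quasi-likelihood test gave an adjusted p of 0.9997. Untrained 3 carried that difference, which was 0.087 without it. Since a library may hold RNA of several cells, more RNA of a gene per cell and more cells of a type that express it cannot be told apart.

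**Figure D1:**
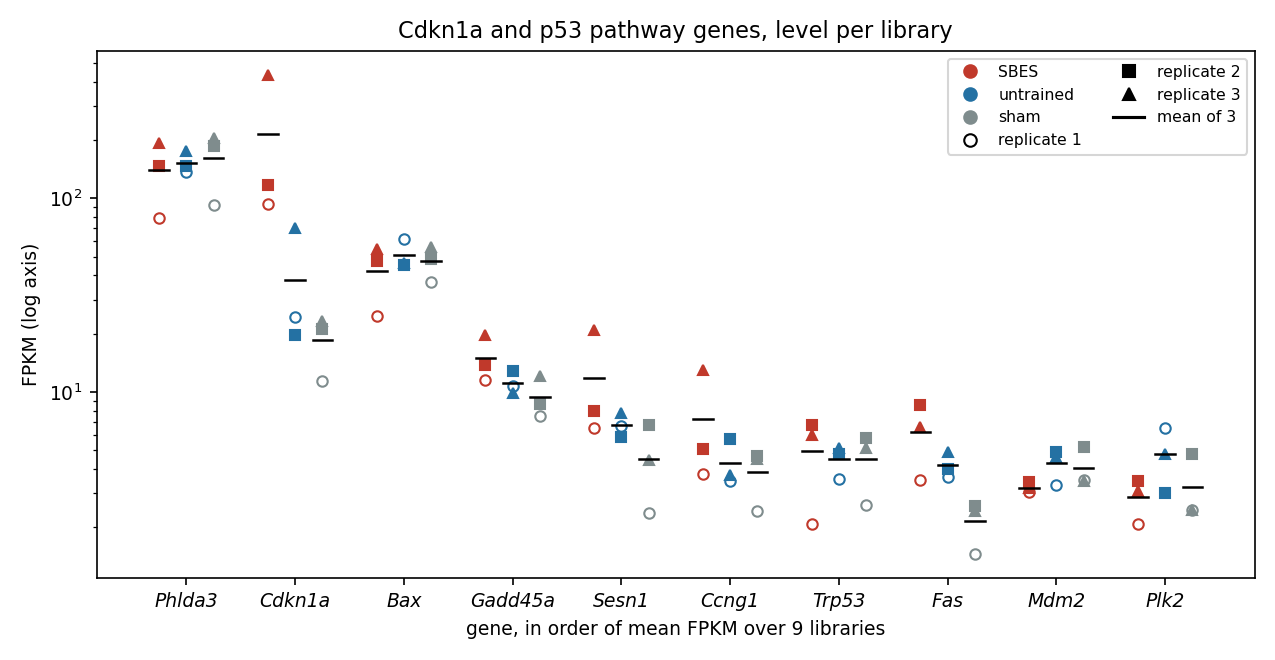
Level of each of the 10 genes in each library, in FPKM on a log axis (counts scaled by gene length and library total), with a horizontal line at each group's mean of 3 libraries. Cdkn1a lies at 93.1 to 434 FPKM in SBES, 19.7 to 70.1 in untrained and 11.4 to 23.4 in sham libraries, and the other genes spread far less between groups.

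On the scale corrected for gene length, Cdkn1a had the highest mean of the 10 in SBES and the third highest in untrained and in sham libraries. It averaged 215 ± 190 FPKM in SBES, 38.0 ± 27.9 in untrained and 18.6 ± 6.38 in sham libraries. Phlda3 was the most abundant of the set without stimulation and averaged 140 ± 57.1 FPKM in SBES, 152 ± 19.7 in untrained and 160.5 ± 59.8 in sham libraries. In SBES, the difference between Cdkn1a and Phlda3 was smaller than the SD of Cdkn1a. Bax followed at 42.3 ± 15.6 FPKM in SBES, 51.2 ± 9.36 in untrained and 47.2 ± 9.50 in sham libraries, above the mean of every remaining gene in each group. Gadd45a averaged 15.0 ± 4.24, 11.2 ± 1.54 and 9.39 ± 2.38 FPKM in SBES, untrained and sham libraries. The other 6 genes lay between 2.16 and 11.8 FPKM in every group mean. Neighbours in the order of these 6 differed by less than the larger of their SDs, except Sesn1 and Plk2 in untrained libraries.

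The genes for p53 and its main inhibitor showed no separation by stimulation. Trp53 (chr11:69580359-69591873) had 11.03, 24.8 and 23.9 CPM in SBES, against 13.7, 16.6 and 18.8 CPM in untrained and 14.5, 20.4 and 20.0 CPM in sham libraries. Its log2 fold change was 0.28 (SE 0.30) for SBES against untrained and 0.12 (SE 0.30) for SBES against sham, and the groups overlapped. Messenger RNA levels say nothing of the amount of p53 protein, which is set mainly by its degradation. Mdm2 (chr10:117688875-117710758), both the ligase that degrades p53 and a direct p53 target, had 20.3, 15.7 and 15.9 CPM in SBES, against 15.996, 21.5 and 21.3 CPM in untrained and 24.6, 23.0 and 17.1 CPM in sham libraries. Its log2 fold changes were negative, -0.18 (SE 0.24) for SBES against untrained and -0.32 (SE 0.24) for SBES against sham. The groups overlapped. Both changes stayed negative under all 17 alternative settings, but these settings refit the same libraries and are no independent support.

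Among the other genes of growth arrest, Ccng1, Gadd45a and Plk2 differed in their pattern. Ccng1 (chr11:40748552-40755311), which codes for cyclin G1, a partner of protein phosphatase 2A that acts on Mdm2, had 17.5, 16.2 and 44.8 CPM in SBES. It had 11.6, 17.3 and 11.9 CPM in untrained and 11.8, 14.3 and 15.3 CPM in sham libraries. SBES 3 alone was far above the rest, at 2.57 times the mean of SBES 1 and 2, and SBES 2 lay below untrained 2. The log2 fold change of 0.95 (SE 0.37) for SBES against untrained was 0.31 without SBES 3, and that of 0.92 (SE 0.37) for SBES against sham was 0.28 without it. Gadd45a (chr6:67035096-67037457), whose protein binds PCNA and p21, had 26.7, 22.0 and 34.2 CPM in SBES, against 18.0, 19.6 and 15.9 CPM in untrained and 18.2, 13.3 and 20.5 CPM in sham libraries. Its 3 SBES libraries lay above all 6 others, by a log2 fold change of 0.63 (SE 0.25) over untrained and 0.68 (SE 0.25) over sham. The antisense gene E230016M11Rik overlaps Gadd45a and had 720 counts over the 9 libraries, against 2751 for Gadd45a. Whether the counting used strand is not given in the sources used here, so reads of the pair may not be separate. Plk2 (chr13:110395046-110400844), a polo-like kinase, had 12.4, 14.2 and 13.6 CPM in SBES, against 27.8, 11.7 and 19.5 CPM in untrained and 15.3, 18.7 and 10.7 CPM in sham libraries. SBES values fell within the range of the other groups, with log2 fold changes of -0.55 (SE 0.32) over untrained and -0.15 (SE 0.32) over sham.

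The genes of cell death did not move as a group. Fas (chr19:34290666-34327772), the death receptor that binds Fas ligand, had 9.58, 15.9 and 13.4 CPM in SBES, against 7.14, 7.13 and 9.17 CPM in untrained and 4.14, 4.63 and 4.85 CPM in sham libraries. No group overlapped another, with SBES above untrained and untrained above sham. The log2 fold changes were 0.73 (SE 0.27) for SBES against untrained, 1.51 (SE 0.27) for SBES against sham and 0.78 (SE 0.27) for untrained against sham. The last was tested and did not pass, with an unadjusted p of 0.0141 and an adjusted p of 0.9997 by edgeR. Fas was counted in 38 to 230 fragments per library, the fewest of the set in 8 of the 9 libraries. Bax (chr7:45461697-45466898), which opens the outer mitochondrial membrane in apoptosis, had 51.2, 68.2 and 84.4 CPM in SBES, against 92.9, 61.5 and 66.2 CPM in untrained and 80.6, 66.7 and 85.1 CPM in sham libraries. Phlda3 (chr1:135766119-135769136), a p53 target whose protein restrains the kinase Akt, had 163, 207 and 296 CPM in SBES, against 203, 196 and 246 CPM in untrained and 198, 253 and 306 CPM in sham libraries. Both overlapped between all groups, with log2 fold changes between -0.19 and 0.046 in the 2 comparisons with SBES.

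Sesn1 (chr10:41809935-41908424), a p53 and FoxO target whose protein sestrin 1 restrains the mTOR complex, was nearest to Cdkn1a in its pattern. It had 34.1, 28.8 and 82.1 CPM in SBES, against 25.4, 20.0 and 28.1 CPM in untrained and 12.96, 23.4 and 17.1 CPM in sham libraries. Each SBES library lay above all 6 others, and SBES 3 had 2.56 times the mean of SBES 1 and 2. The log2 fold change was 0.98 (SE 0.37) for SBES against untrained and 1.44 (SE 0.38) for SBES against sham, and without SBES 3 it was 0.36 and 0.82. SBES 3 was at least 2-fold above the mean of SBES 1 and 2 for Cdkn1a, Ccng1 and Sesn1, 3 of the 10 genes, and for 2.04% of all genes tested.

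**Figure D2:**
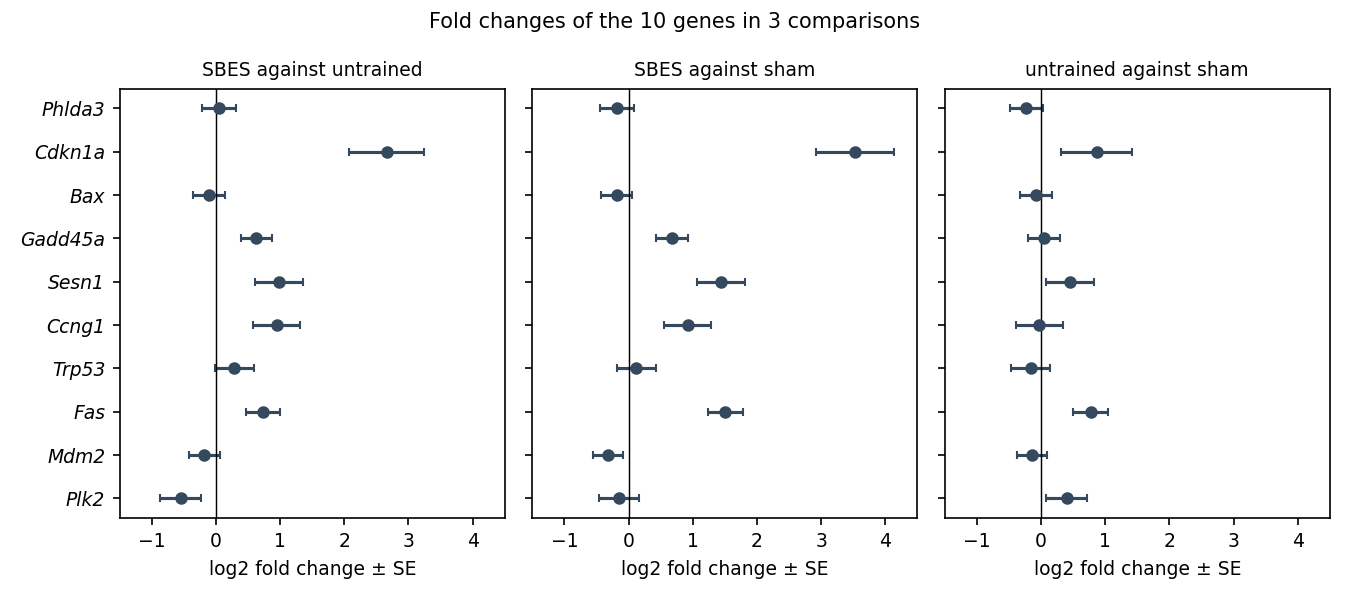
Log2 fold change with its standard error for each of the 10 genes in the 3 comparisons (edgeR, 3 libraries per group), in order of mean FPKM from top to bottom. In both comparisons with SBES, Cdkn1a stands at 2.66 and 3.53, Fas, Sesn1, Ccng1 and Gadd45a lie between 0.63 and 1.51, and Mdm2, Bax and Plk2 lie at or below -0.11.

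Counted over the set, 7 of 10 genes had a positive log2 fold change for SBES against untrained and 6 of 10 for SBES against sham, with medians of 0.46 and 0.40. Of all 15893 genes, 8219 and 7911 were positive in these comparisons. Without Cdkn1a the medians of the other 9 were 0.28 and 0.12, beside 0.015 and -0.0018 over all genes tested. These 2 medians moved with single libraries. For SBES against untrained the median of the 9 was 0.57 without SBES 1, 0.0998 without SBES 2, 0.13 without SBES 3 and 0.15 without untrained 1, and with limma it was 0.016 and -0.013 at pseudocounts of 1 and 0.1. For SBES against sham it was 0.43 without SBES 1, -0.064 without SBES 2, -0.029 without SBES 3, -0.00025 without sham 1, 0.21 without sham 2 and 0.19 without sham 3. SBES lay wholly above untrained for 4 of 10 genes, Cdkn1a, Fas, Gadd45a and Sesn1, and for 5.66% of all genes. SBES lay wholly above sham for 5 of 10, the same genes with Ccng1, and for 7.1% of all genes. None of the 10 lay wholly below untrained, as 4.77% of all genes did, or wholly below sham, as 6.73% did. At an adjusted p under 0.05 by edgeR, 0% of all genes passed for SBES against untrained, where 854 genes had an unadjusted p under 0.05 and DESeq2 called 29 genes. For SBES against sham 0.346% of all genes passed, 43 of them higher and 12 lower in SBES, and with the replicate number as a block 132 genes passed against 55. No calls are given for the 10 genes in these 2 comparisons. Since the genes were chosen for these comparisons, nothing is read from these counts. Both comparisons share the SBES libraries.

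Injury without stimulation was tested against sham for all 10 genes. The summed motor neuron markers, 649 to 1041 CPM in untrained and 1288 to 1578 in sham libraries, did not overlap. Nor did those of all neurons, at 6517 to 6906 and 8565 to 12560.5 CPM. An effect of injury and a difference in cell content cannot be told apart here. For untrained against sham 0 of 10 passed, as did 0% of all genes by edgeR, where 707 genes had an unadjusted p under 0.05 and DESeq2 called 14 genes, none in the set. The log2 fold changes ran from -0.23 (SE 0.26) for Phlda3 to 0.87 for Cdkn1a, 5 were positive and 5 negative, and the median was 0.0093. Of all 15893 genes, 7800 were positive. Scaling by library totals gave 8 of 10 positive with a median of 0.20, and limma on FPKM 9 of 10 with medians of 0.19 and 0.22. Sesn1 had 0.46 (SE 0.37) and Plk2 0.40 (SE 0.32), both with overlapping groups. The remaining 6, Gadd45a, Ccng1, Bax, Mdm2, Trp53 and Phlda3, lay between -0.23 and 0.044. Untrained lay wholly above sham for Fas alone, 1 of 10, and for 4.63% of all genes, and wholly below sham for 0 of 10 and 5.13% of all genes.

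A wider set of p53 targets was counted in the same fit. The 5 lists of targets for cell cycle arrest, apoptosis, feedback on p53, DNA repair and metabolism held 57 further genes, of which 51 were tested. By edgeR 0 of 51 passed in each of the 3 comparisons. At an unadjusted p under 0.05 there were 2 higher and 1 lower of 51 for SBES against untrained, beside 3.7% and 1.67% of all genes. For SBES against sham there were 6 higher and 0 lower, beside 5.7% and 3.61%, and for untrained against sham 0 higher and 2 lower, beside 2.18% and 2.27%. DESeq2 called 0, 1 and 0 of them in these comparisons. The median log2 fold change was 0.0079 for SBES against untrained, with 28 of 51 positive, and 0.18 for SBES against sham, with 30 of 51 positive, beside 0.015 and -0.0018 over all genes. SBES lay wholly above untrained for 8 of 51 and wholly above sham for 8 of 51, beside 5.66% and 7.1% of all genes. It lay wholly below untrained for 3 and wholly below sham for 3, beside 4.77% and 6.73% of all genes. For untrained against sham 33 of 51 were positive. Of all 15893 genes, 8219, 7911 and 7800 were positive for SBES against untrained, SBES against sham and untrained against sham. For SBES against sham the median of 0.18 was 0.089 without SBES 2 and 0.099 without sham 1. Scaling by library totals alone shifted the median of all genes to -0.19 for SBES against untrained and that of the wider set to -0.18, with 15 of 51 positive. It shifted the median of all genes to 0.18 for untrained against sham, where that of the wider set was 0.32 with 40 of 51 positive, against 0.10 with TMM.

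For SBES against sham the median log2 fold changes were 0.39 for the 16 apoptosis targets, 0.18 for the 5 feedback targets, 0.18 for the 16 metabolic and other targets, 0.010 for the 5 arrest targets and -0.094 for the 9 repair targets. Trp53inp1, a stress protein that acts on p53 through its kinases, had the largest log2 fold change of the wider set in both comparisons with SBES. It had 8.13, 4.23 and 5.87 CPM in SBES, 1.32, 3.34 and 2.53 CPM in untrained and 1.53, 1.78 and 1.64 CPM in sham libraries. Its log2 fold change was 1.33 (SE 0.39) for SBES against untrained, with an adjusted p of 0.749, and 1.87 (SE 0.40) for SBES against sham, with an adjusted p of 0.0853 by edgeR. SBES was above both groups in 3 of 3 libraries. DESeq2 called it for SBES against sham, as did the fits with no filter, without untrained 1, without the 3 libraries numbered 1 and with a term for those. Bbc3, the apoptosis gene Puma, averaged 7.04 ± 0.79 CPM in SBES, 4.999 ± 2.11 in untrained and 3.13 ± 0.27 in sham libraries, a log2 fold change of 1.16 (SE 0.33) for SBES against sham with an adjusted p of 0.205. Sulf2, a sulfatase of heparan sulfate, averaged 63.5 ± 21.4, 34.1 ± 10.0 and 32.8 ± 9.80 CPM in SBES, untrained and sham libraries. Sesn2, the relative of Sesn1, averaged 14.9 ± 0.90, 10.4 ± 2.40 and 9.15 ± 1.67 CPM in the same groups. Polk, a translesion DNA polymerase, was lower in SBES in all 3 libraries, at 2.09 ± 0.44 CPM against 3.80 ± 0.70 CPM in untrained. None of the 3 passed. For untrained against sham the smallest p-values belonged to Dram1 (-1.52, SE 0.60), Ckmt1 (-0.48, SE 0.21), Bbc3 (0.67, SE 0.33) and Rchy1 (0.44, SE 0.22), each with an adjusted p of 0.9997 by edgeR. Dram1 was near the floor, at 0.33 ± 0.14 CPM in untrained and 0.97 ± 0.42 CPM in sham libraries. Of the feedback targets, named after their values were seen, Mdm4 had 0.32 (SE 0.35) and Ppm1d 0.18 (SE 0.33) for SBES against sham.

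**Figure D3:**
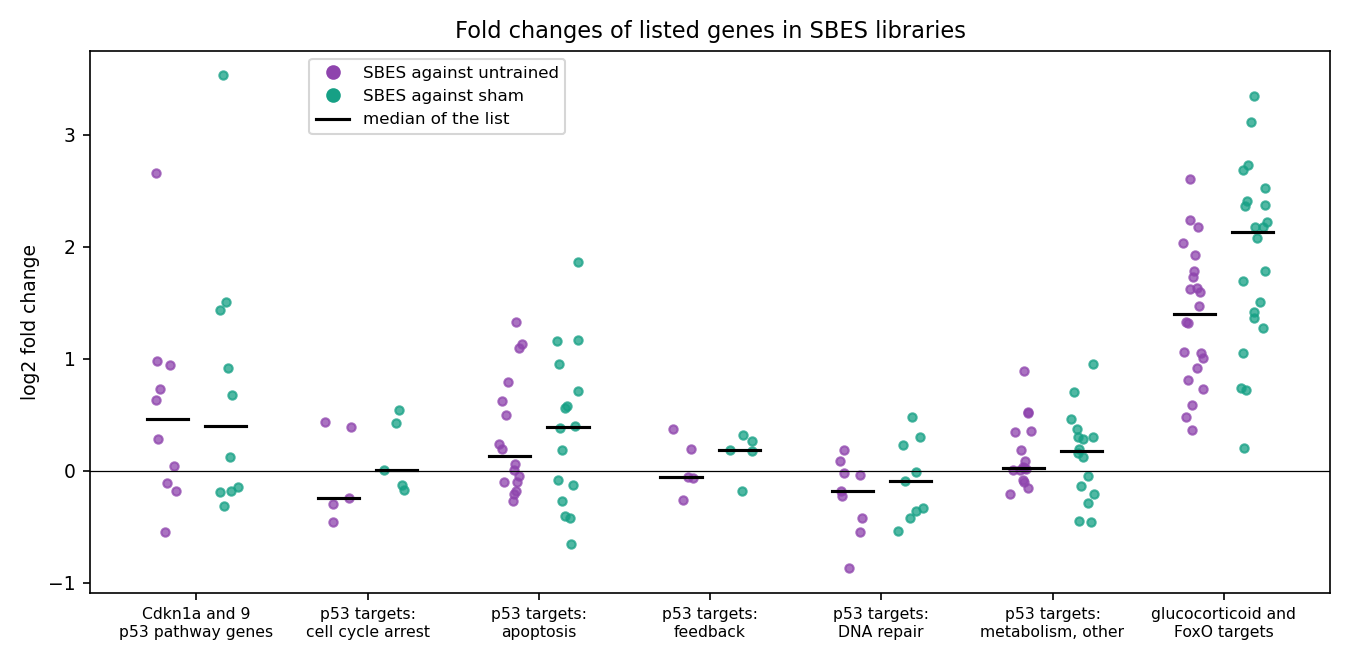
Log2 fold change of each tested gene of the set, of the 5 lists of further p53 targets and of a list of glucocorticoid and FoxO targets, for SBES against untrained and SBES against sham, with a line at each list's median. The medians of the p53 lists lie between -0.25 and 0.39, and those of the glucocorticoid and FoxO list at 1.40 and 2.13.

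Genes upstream of p53, other inhibitors of the cell cycle and genes of proliferation were also counted, and by edgeR 0 passed in any of the 3 comparisons. These were 17 tested genes of the p53 family and its regulators, 5 other inhibitors of cyclin-dependent kinases, 9 cyclins and kinases that p21 binds, 10 proliferation genes and 13 transcription factors and growth genes of axon damage. Their medians for SBES against untrained were -0.0018, 0.20, -0.13, 0.26 and 0.20. For SBES against sham they were 0.094, 0.63, -0.00077, 0.10 and 0.39. Of all genes, 0% passed for SBES against untrained, 0.346% for SBES against sham and 0% for untrained against sham, so 0 calls in these short lists say little. Cdkn1b and Cdkn1c, which code for the related inhibitors p27 and p57, are named after their values were seen. Cdkn1b averaged 7.69 ± 3.12 CPM in SBES, 3.94 ± 1.97 in untrained and 4.25 ± 0.59 in sham libraries. Cdkn1c averaged 11.1 ± 0.69 CPM in SBES, 12.3 ± 5.77 in untrained and 23.9 ± 11.3 in sham libraries, with SBES wholly below sham and an adjusted p of 0.323 by edgeR. The cyclin D1 gene Ccnd1, likewise named after its values were seen, averaged 16.1 ± 4.04 CPM in SBES, 24.8 ± 10.7 in untrained and 33.6 ± 2.14 in sham libraries, with an adjusted p of 0.210 by edgeR for SBES against sham.

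Targets of the glucocorticoid receptor and FoxO factors were listed beside the p53 targets because earlier results of these data had shown several of them high in SBES. That list is therefore no independent evidence of its direction, and its calls below come from the data that led to its choice. They are given as a description. All 22 of its genes had a positive log2 fold change in both comparisons with SBES, with medians of 1.40 over untrained and 2.13 over sham. By edgeR 7 of 22 rose in SBES against sham, Sult1a1, Ddit4, Nfkbia, Per1, Klf9, Klf15 and Zbtb16, beside 0.346% of all genes, and 0 of 22 passed for SBES against untrained, where DESeq2 called 7. Ddit4, an inhibitor of the mTOR complex, averaged 31.4 ± 8.17 CPM in SBES, 10.1 ± 3.15 in untrained and 6.07 ± 0.93 in sham libraries. For SBES against sham the list had 13 calls with the replicate block, 1 without SBES 3, 4 without untrained 2, 3 without sham 1, 2 without sham 2 and 0 without sham 3, where all genes had 0.

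Across the 9 libraries the other members followed Cdkn1a to very different degrees. On log2(CPM + 1), Pearson's r with Cdkn1a was 0.91 for Sesn1, 0.85 for Fas, 0.79 for Gadd45a and 0.76 for Ccng1. It was 0.30 for Trp53, 0.14 for Phlda3, -0.14 for Bax, -0.19 for Plk2 and -0.52 for Mdm2. The libraries fall into the study's groups, so r was also taken on deviations from the group means, where it was 0.81 for Sesn1, 0.80 for Phlda3, 0.56 for Ccng1, 0.42 for Trp53, 0.38 for Fas, 0.35 for Bax, 0.29 for Gadd45a, 0.12 for Plk2 and -0.15 for Mdm2. Leaving out SBES 1 and SBES 3, the libraries farthest from the median of Cdkn1a, r was 0.72 for Sesn1, 0.28 for Gadd45a and 0.081 for Ccng1, so the last 2 rested on these libraries. These values describe 9 libraries that share groups and scaling, and no p was computed.

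**Figure D4:**
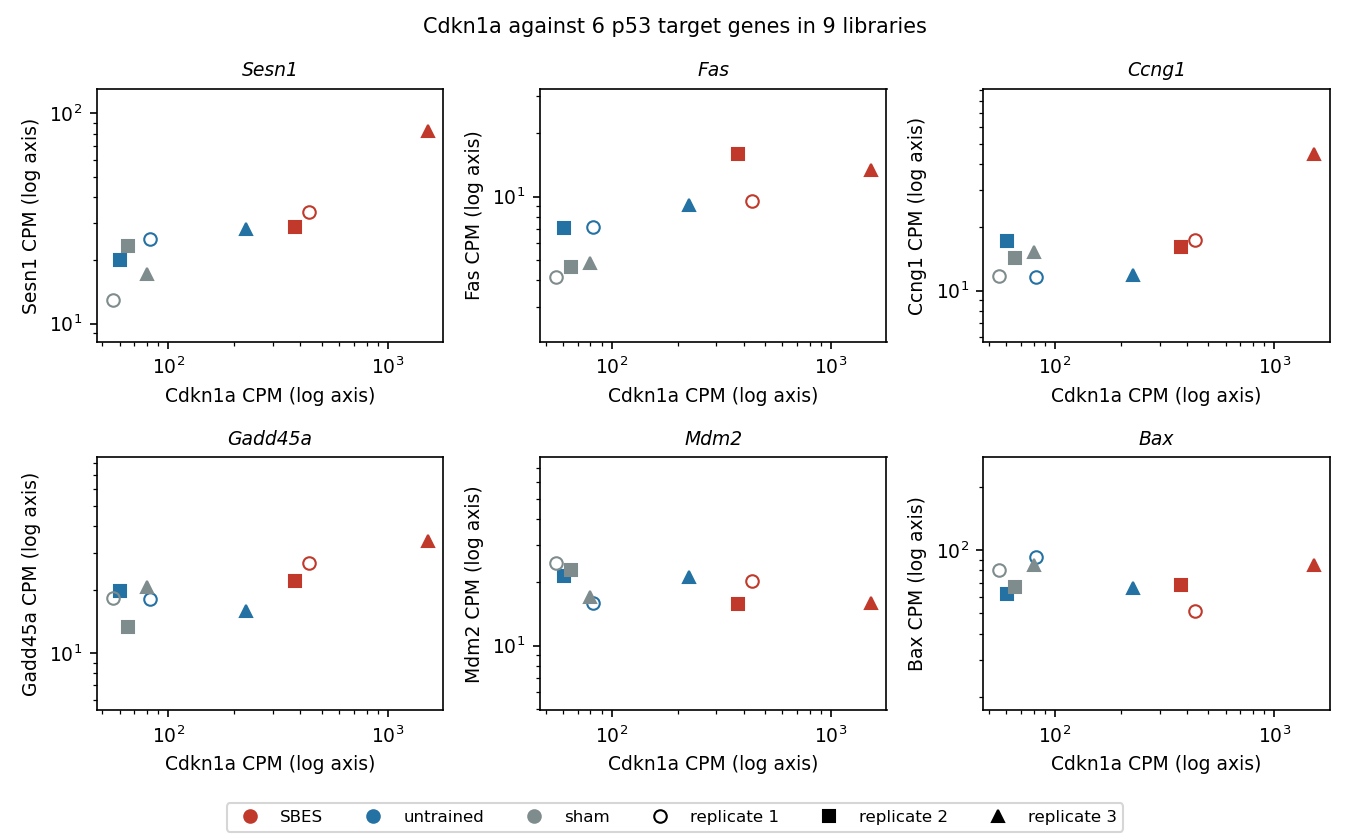
CPM of Sesn1, Fas, Ccng1, Gadd45a, Mdm2 and Bax against CPM of Cdkn1a in the 9 libraries, both on log axes, with the groups in colours and the replicates in symbols. Sesn1 climbs with Cdkn1a to 82.1 CPM in SBES 3, Ccng1 is high in that library only, and Mdm2 and Bax do not climb with Cdkn1a.

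Among 5300 genes with a mean of at least 5 FPKM, the 8 with the pattern most like Cdkn1a were Phactr3, Nfkbia, Trim8, Nt5c3, Dmwd, Stat3, Pnpla2 and Tspan4. Their r ran from 0.94 to 0.97, Spearman's rho from 0.68 to 0.95 and r within groups from 0.76 to 0.95. Of the 10 genes Fas, Mdm2, Plk2 and Trp53 lay below that level and were not ranked. Sesn1 ranked 25 and Plk3, of the wider p53 lists, ranked 21. Of the 8, Nfkbia is on the glucocorticoid and FoxO list and Stat3 on the list of axon damage. Phactr3, whose protein binds actin and protein phosphatase 1, came first, with 223, 128 and 361 CPM in SBES, against 30.6, 38.8 and 80.2 CPM in untrained and 25.8, 31.4 and 25.1 CPM in sham libraries. As with Cdkn1a, untrained 3 was the highest of the untrained libraries and SBES 3 the highest of all. The median r with Cdkn1a was -0.016 over all 5300 genes, 0.76 over the 5 other members at that level, 0.096 over the 20 genes of the wider p53 lists at that level and 0.85 over 16 genes of the glucocorticoid and FoxO list. Within groups these medians were 0.25, 0.56, 0.31 and 0.59 in the same order. Over all 9 other members, whatever their level, the median r was 0.30. Ccng1, whose r of 0.76 is the median of the 5, averaged 7.27 FPKM in SBES, 4.30 in untrained and 3.88 in sham libraries. It thus reached the level of 5 FPKM only through the SBES libraries. Members and lists were chosen with earlier results of these data known, so these medians are no independent evidence. Of the 20, Plk3, a stress kinase, had 0.92 and Sulf2 0.70.

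Markers of other cell types moved with some of these values, and their part in the results was not tested. All 8 markers of endothelium and pericytes, among them Cldn5 and Pecam1, had a positive log2 fold change for SBES against sham. For untrained against sham 7 of the 8 were positive. Of these, 5 had an unadjusted p under 0.05 by edgeR, beside 2.18% of all genes. None of the 8 was at 0 in any library. Their summed level was 587 to 860 CPM in SBES, 518 to 764 in untrained and 318.5 to 557 in sham libraries. The SBES sums lay above all sham sums and overlapped the untrained ones, and Pearson's r of this sum with Cdkn1a was 0.60. For SBES against sham 3 of the 8 were higher at an unadjusted p under 0.05 by edgeR, beside 5.7% of all genes. In that comparison 3 lay wholly above sham, beside 7.1% of all genes. For SBES against untrained 5 were positive and 3 negative. The sum of 8 microglia markers, among them Cx3cr1 and P2ry12, was 494 to 1365 CPM in SBES, with the highest value in SBES 3. It was 673 to 815 in untrained and 407 to 912 in sham libraries, and none was at 0. The single markers were split. For SBES against untrained 3 were positive and 5 negative, and 3 lay wholly below untrained, beside 4.77% of all genes. For SBES against sham 5 were positive and 3 negative. Pearson's r with Cdkn1a was 0.52 for the sum, -0.43 for Cx3cr1 and -0.70 for P2ry12. Infiltrating leukocyte markers, among them Ptprc and Ccr2, summed to 99.7 to 142 CPM in SBES, 78.6 to 606 in untrained and 8.83 to 1432 in sham libraries, and 4 of the 8 were at 0 in at least 1 library. Astrocyte markers, among them Gfap and Aqp4, and ependymal markers, among them Foxj1 and Tmem212, had sums that overlapped between all groups. Mbp, a myelin gene of oligodendrocytes, had 40718.5 to 67259 CPM in SBES, 32381 to 49509.5 in untrained and 39860.3 to 94286 in sham libraries, and the groups overlapped. Without the 3 libraries numbered 1, Cdkn1a had a log2 fold change of 2.71 for SBES against untrained and 3.71 for SBES against sham, as large as with them.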

How the data were processed

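Smart-seq2 libraries of labelled spinal motoneurons were used, 3 each from SBES, untrained and sham mice. The authors used Hisat2 2.0.1 for alignment, HTSeq 0.6.1 for counting and DESeq2 for testing, per the labels' protocols. The submitters' processing notes name mm10 as the build. The annotation release and the strand setting are not stated there. The deposited table holds, for every library, raw counts per gene and the authors' FPKM (counts scaled by gene length and total), with no replicates pooled. Of the gene identifiers, 99.5% were in GENCODE M21. Total counts were 11821145 to 17675948 per library. The columns of 4 libraries were matched by elimination.

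Counts were tested with edgeR 4.0.16 in R 4.3.3 (filterByExpr, TMM scaling, a quasi-likelihood fit of all 9 libraries with 1 coefficient per group). A gene was called where p, adjusted by Benjamini-Hochberg over 15893 genes, was under 0.05. CPM use the TMM-scaled totals, ± is the SD over 3 libraries, and standard errors are of the log2 fold change. Members and lists were chosen with earlier results of these data known, and nothing a list shows is independent of them. Named genes were the members, called genes of a list, up to 4 genes of smallest p per comparison from the p53 and the glucocorticoid and FoxO lists, the first markers of each cell type and the 8 genes most like Cdkn1a. Of the genes this named, some of the glucocorticoid and FoxO list are given by counts only. The sum of 1 marker list is not reported here. Alternatives used DESeq2 1.42.0, limma 3.58.1 on log2(FPKM + 1) and log2(FPKM + 0.1), other scaling and filters, a replicate block and left-out libraries. The edgeR step was tested on simulated counts. Counts hold PCR copies, so precision covers counting error only in part. Whether the replicate numbers pair libraries was checked by the correlation of deviations from group means. Same-numbered SBES and sham libraries had 0.19 to 0.33, all over 0.1, SBES and untrained -0.17 to 0.31, and untrained and sham 0.016 to 0.44. Differently numbered libraries had -0.30 to 0.21, -0.40 to 0.23 and -0.42 to 0.34 in the same order.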

Additional observations from a re-analysis of the deposited data

How the results depend on the processing

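Genes called for SBES against untrained (0) became 29 with DESeq2, 186 with no filter on low counts, 13 without the 3 libraries numbered 1, and 0 to 1 on leaving out 1 library. Genes called for SBES against sham (55) became 283 with DESeq2, 517 with no filter, 132 with the replicate block, 21 and 30 with limma at pseudocounts of 1 and 0.1, 581 without the libraries numbered 1 and 186 with a term for them, which was chosen after seeing the data. On leaving out 1 library they ran from 0 (without sham 3) to 86 (without SBES 1), with 4 without SBES 3, 6 without sham 2 and 29 without sham 1. Genes called for untrained against sham (0) became 14 with DESeq2, 134 with no filter, 1 with library totals, 4 with the replicate block, 1 with limma at 0.1, 47 without the libraries numbered 1 and 9 with the term for them. Of the wider p53 targets, the count for SBES against sham (0 of 51) became 1 of 57 with DESeq2 and with no filter, 1 of 51 with the term and 1 of 53 without untrained 1, Trp53inp1 each time, and 3 of 53 without the libraries numbered 1 (Sulf2, Btg2 and Trp53inp1). Apart from what the construction of these settings fixes, the cause was not tested. With the replicate block, SBES against untrained had 0 calls. The correlations of same-numbered and of differently numbered libraries overlapped between each pair of groups. Whether the replicate numbers pair libraries was therefore not settled.

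Of the 10 genes, Cdkn1a, Fas, Gadd45a, Sesn1 and Ccng1 were higher in SBES under all 17 alternatives in both comparisons, and Mdm2 lower. The alternatives refit the same libraries, so an unchanged sign is no independent support. Bax, Phlda3, Plk2 and Trp53 each turned sign in 1 to 6 settings of an SBES comparison. For untrained against sham, signs turned among changes near 0. Mdm2 (-0.14) was 0.073 with library totals, 0.063 and 0.077 with limma and 0.12 without the libraries numbered 1, and on leaving out 1 library it ran from -0.28 to 0.027. Ccng1 (-0.026) was 0.15 with totals, 0.025 with no filter, 0.0023 with only the 2 groups fitted, 0.0040 with the replicate block, 0.13 and 0.17 with limma and 0.0057 without the libraries numbered 1, and ran from -0.24 to 0.11. Bax (-0.075) was 0.12 with totals and with limma and ran from -0.24 to 0.038. Trp53 (-0.16) was 0.034 and 0.053 with limma, and Gadd45a (0.044) ran from -0.12 to 0.19.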
